A study of Homo sapiens with 12 samples.

Results

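The genes described here are the histone genes of the H1, H2A, H2B, H3 and H4 families whose current symbols begin with H1-, H2AC, H2BC, H3C or H4C, the names given to the clustered, replication-dependent genes. Of 74 protein-coding genes with such symbols, 46 had a probe set that named no other gene and were measured here, among 19775 genes in all. A further 19 were named only by probe sets shared between several genes, and 9 were not named by the array's annotation and were not analysed here. The 46 members comprised 9 H1, 8 H2A, 14 H2B, 7 H3 and 8 H4 genes, 40 of them on chromosome 6. The symbols also take in genes that are not replication-dependent in the usual sense, namely the replacement linker histone gene H1-10 and the germ line genes H1-6, H1-7, H1-8 and H2BC1.

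The samples were cultures of U937, an established human myelomonocytic cell line, which carried either an EVI1 expression vector (EVI1 cells) or an empty vector (vec cells). EVI1, a DNA-binding regulator with zinc fingers, is a product of the MECOM locus. Each population was treated for 24 h with 50 ng/ml TPA, which acts on protein kinase C and makes U937 cells take on features of macrophages, or with the solvent ethanol (EtOH). The 4 groups, EVI1 TPA, vec TPA, EVI1 EtOH and vec EtOH, had 3 biological replicates each, and all 12 RNA samples came from transduced cells, so that there was no untransduced group. The sources used here do not give the vector's promoter or whether a population was 1 clone.

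Core histones H2A, H2B, H3 and H4 form the protein spool around which DNA is wound, and H1 linker histones bind the DNA between spools. The clustered genes are transcribed mainly in S phase, when new chromatin needs histones, and most of their mRNAs end in a conserved stem-loop, bound by the protein SLBP, in place of a poly(A) tail. Some of these genes are also known to give polyadenylated transcripts, above all in cells that leave the cell cycle or differentiate. The arrays were labelled by a 3′ protocol that primes from poly(A) tails, so each value is the labelled RNA that a probe set detected, on the log2 scale, and not the whole output of the gene. It is an average over the cells of a culture, in which fewer cells with a transcript and less of it per cell cannot be told apart.

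The stretches before the transcription starts show what the genes share as sequence. Each is the 200 bases before a start, from RefSeq on GRCh38.p14, read 5′ to 3′ on the gene's own strand. Capitals mark the TATA box letters TATAAA, the CCAAT box letters CCAAT and the octamer ATTTGCAT, each searched on both strands, with no overlap between different motifs. The first 3 genes were higher with TPA in both populations and the last 3 were lower in both. They were taken by the size of the difference in EVI1 cells, among members given array by array below. H1 genes were left out of the last 3, so H1-10, which fell more than H3C3, is not printed.
H2BC21 (chr1:149886683-149886882, minus strand): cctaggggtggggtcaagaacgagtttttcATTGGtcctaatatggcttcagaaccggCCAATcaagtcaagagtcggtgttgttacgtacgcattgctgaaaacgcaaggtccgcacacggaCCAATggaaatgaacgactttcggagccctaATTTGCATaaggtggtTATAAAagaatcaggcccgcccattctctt
H2BC12 (chr6:27146859-27147058, minus strand): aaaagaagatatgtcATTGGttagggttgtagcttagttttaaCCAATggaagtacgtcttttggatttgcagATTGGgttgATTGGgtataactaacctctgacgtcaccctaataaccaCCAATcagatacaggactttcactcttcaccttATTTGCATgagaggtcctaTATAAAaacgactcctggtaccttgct
H2AC6 (chr6:26123972-26124171, plus strand): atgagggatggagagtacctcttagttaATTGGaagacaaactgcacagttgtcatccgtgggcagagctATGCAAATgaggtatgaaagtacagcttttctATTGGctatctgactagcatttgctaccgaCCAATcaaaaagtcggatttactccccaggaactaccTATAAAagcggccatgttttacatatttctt
H4C11 (chr6:27823892-27824091, plus strand): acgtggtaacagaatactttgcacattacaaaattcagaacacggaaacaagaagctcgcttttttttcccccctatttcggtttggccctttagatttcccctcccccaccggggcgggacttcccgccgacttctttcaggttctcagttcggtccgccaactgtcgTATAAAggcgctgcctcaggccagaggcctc
H2AC14 (chr6:27814778-27814977, minus strand): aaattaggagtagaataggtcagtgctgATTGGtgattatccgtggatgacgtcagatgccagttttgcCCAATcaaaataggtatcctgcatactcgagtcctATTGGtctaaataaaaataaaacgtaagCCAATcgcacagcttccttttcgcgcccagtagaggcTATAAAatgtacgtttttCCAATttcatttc
H3C3 (chr6:26045184-26045383, plus strand): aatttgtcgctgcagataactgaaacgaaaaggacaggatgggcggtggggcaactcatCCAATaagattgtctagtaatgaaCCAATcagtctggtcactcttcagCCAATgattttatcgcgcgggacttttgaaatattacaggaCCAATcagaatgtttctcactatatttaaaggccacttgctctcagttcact

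In H2BC21 and H2BC12, which encode H2B proteins, the octamer began 46 bases before the start in both genes, and the TATA box 30 and 27 bases before it. H2AC6, an H2A gene, held the octamer on the other strand, 130 bases before its start. The octamer is the site bound by the OCT1 factor, long known from H2B promoters. Over the 43 members with a RefSeq stretch, TATAAA occurred in 24 (55.8%), against 8.92% of all 27305 stretches. CCAAT occurred in 37 (86.0%), against 28.9% of all stretches, and the octamer in 14 (32.6%), against 1.32%. The octamer was present in 10 of 13 H2B and 4 of 8 H2A stretches and in none of the H1, H3 and H4 stretches. By response to TPA, it was present in 3 of 3 members that were higher in both populations, in 3 of 14 that were lower in both, in 4 of 9 called in 1 population and in 4 of 17 called in neither. Those 3 higher members were all H2A or H2B genes, while the 14 lower ones included H1, H3 and H4 genes. The split by response is therefore not separate from the split by family. H2BC12L, also higher in both populations, had no RefSeq stretch. CCAAT was found in 2 of 7 H4 stretches, in 8 of 9 H1 stretches and in every stretch of the other families. Stretches of neighbouring members that read away from each other can overlap, so 1 site can count for 2 members. The octamer of H2AC6 also lies in the stretch of H2BC4 and was counted for both genes. The counts by family and by response are therefore not all of separate sites. These matches describe letters in a window and say nothing on whether a factor was bound.

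A few facts on all 12 arrays frame the values. Deposited log2 values ran between 1.98 and 14.6, array medians between 5.07 and 5.11, and arrays of 1 group correlated at 0.993 to 0.998. All 9 measured myelomonocytic markers reached 5.07 in at least 1 group. Of the markers of other cell types, 1 of 4 T cell, 2 of 3 B cell, 2 of 2 erythroid, 2 of 4 epithelial and 2 of 4 fibroblast genes did, none with a group mean above 7.38. The 5 MECOM probe sets lay between 2.59 and 3.32 on every array, and the smallest adjusted p between EVI1 and vec cells was 0.118, so MECOM gave no check of the population labels. The log2 gap between 3′ and 5′ control probe sets differed between treatments. For ACTB it was 1.31 ± 0.17 on 6 TPA arrays and 1.85 ± 0.13 on 6 EtOH arrays (SD; p = 0.00216 in a two-sided exact permutation test). The GAPDH gap was 0.40 ± 0.11 on TPA arrays and 0.57 ± 0.15 on EtOH arrays (exact p = 0.0476). The part of this gap in the TPA results below was not tested. Between populations within a treatment it did not pass the exact test (p = 0.3 to 1, smallest possible p 0.1).

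Many histone genes were dim. Taking the lowest array median, 5.07, as a limit under which group means were not shown to exceed background, 21 members had a group mean at or above it, 18 of them in all 4 groups, and 25 lay below it in every group. The brightest members by their own probe sets were H2BC12, H1-10 and H2BC12L. A gene is called higher or lower here when its adjusted p in limma's moderated test, with Benjamini-Hochberg adjustment over all 19775 genes, was below 0.05.

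TPA moved the histone genes in both directions. In EVI1 cells, 4 members were higher and 20 lower with TPA than with EtOH, or 52.2% of the 46, against 40.0% of all genes (19.4% higher and 20.6% lower). In vec cells, 6 were higher and 16 lower, or 47.8%, against 43.2% of all genes (20.7% higher and 22.5% lower). The median TPA minus EtOH difference of the members was -0.14 in EVI1 cells and -0.10 in vec cells, while that of all genes was 0.00 and 0.02. Among members with a group mean of at least 5.07, 4 were higher and 9 lower of 21 in EVI1 cells, and 5 higher and 10 lower in vec cells. The same limit left 57.5% of all genes called in EVI1 cells and 60.8% in vec cells. The TPA and EtOH arrays did not overlap for 24 members (52.2%) in EVI1 cells and 28 (60.9%) in vec cells, against 46.6% and 50.3% of all genes.

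Across both populations, the same 4 members were higher, H2BC21, H2BC12, H2AC6 and H2BC12L, and the same 14 were lower. No member was called in opposite directions, 6 were called in EVI1 cells only and 4 in vec cells only, and 18 in neither. The 4 that were higher all reached 5.07, as did 8 of the 14 that were lower.

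**Figure D1:**
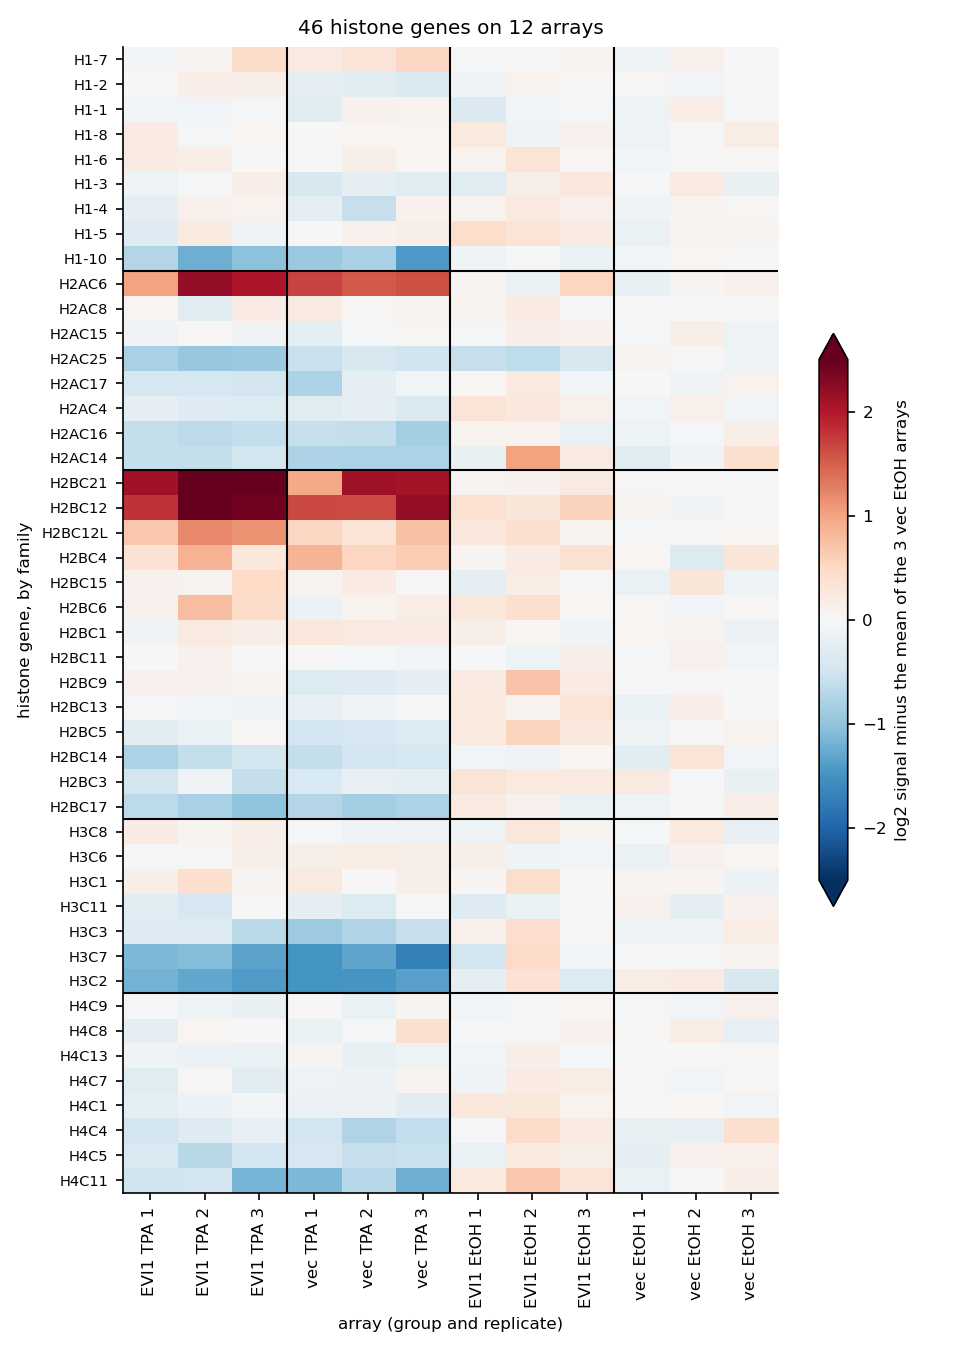
Each row is 1 of the 46 histone genes, ordered by family from H1 at the top to H4 at the bottom, and each column 1 array; colour gives the log2 signal minus the mean of the 3 vec EtOH arrays, with differences beyond the ends of the scale shown in the end colours. H2AC6, H2BC21 and H2BC12 are red on all 6 TPA arrays, and H3C7, H3C2, H4C11 and H1-10 are blue on the same arrays.

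The 2 largest increases with TPA belonged to H2B genes. H2BC21 (older symbol HIST2H2BE, chromosome 1) was at 5.91, 6.85 and 6.62 in EVI1 TPA cells, against 3.88, 3.91 and 4.03 in EVI1 EtOH cells. In vec cells it was at 4.75, 5.93 and 5.88 with TPA, against 3.84, 3.80 and 3.77 with EtOH. Every TPA array lay above every EtOH array, and replicate 1 was the lowest TPA array in both populations. The difference was 2.52 ± 0.27 (SE) in EVI1 cells and 1.72 ± 0.27 in vec cells (limma adjusted p = 2.92e-06 and 0.000104). Both EtOH means, 3.94 and 3.80, were below 5.07, so the size of the rise rests on a level not shown to be above background. The same replicate 1 arrays had the highest mean of 20 S phase genes among TPA arrays, at 7.75, 6.92 and 7.02 in EVI1 TPA cells and 7.25, 6.78 and 6.83 in vec TPA cells, and its part in the spread of H2BC21 was not tested.

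H2BC12 (older symbol HIST1H2BK, chromosome 6) was at 10.21, 10.93 and 10.83 in EVI1 TPA cells, against 8.80, 8.71 and 8.98 in EVI1 EtOH cells. The vec cells had 10.07, 10.05 and 10.60 with TPA, against 8.48, 8.33 and 8.42 with EtOH. The TPA and EtOH arrays were well apart in each population. The difference was 1.83 ± 0.18 in EVI1 cells and 1.83 ± 0.18 in vec cells, or 3.55-fold and 3.56-fold (adjusted p = 1.06e-06 and 8.85e-07). H2BC12L, a gene closely related to H2BC12 that lies outside the clusters on chromosome 21, was at 8.63, 9.16 and 9.08 in EVI1 TPA cells, against 8.22, 8.35 and 8.02 in EVI1 EtOH cells. On the vec arrays it was at 8.47, 8.30 and 8.68 with TPA, against 7.90, 7.95 and 8.01 with EtOH. Its TPA and EtOH arrays were separate in both populations, by a narrower margin than those of H2BC12. It rose by 0.76 ± 0.14 in EVI1 cells and 0.53 ± 0.14 in vec cells (adjusted p = 0.000394 and 0.0059). Its probe set is of a kind, marked _x_at by the maker, that can also bind related transcripts. How much of its signal came from H2BC12 transcripts was not tested.

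The H2A gene H2AC6 (older symbol HIST1H2AC) was at 6.32, 7.51 and 7.33 in EVI1 TPA cells, against 5.38, 5.15 and 5.84 in EVI1 EtOH cells. For vec cells the values were 6.99, 6.84 and 6.90 with TPA, against 5.13, 5.37 and 5.42 with EtOH. The groups did not overlap, and EVI1 TPA replicate 1 was the lowest of the 6 TPA arrays. The rise was 1.60 ± 0.25 in both EVI1 and vec cells (adjusted p = 9.37e-05 and 8.08e-05), about 3.02-fold and 3.04-fold.

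Of the 11 other H2B genes, H2BC4 was called higher in vec cells, and none was called higher in EVI1 cells by the probe set used for the gene. H2BC5 had 2 probe sets of its own, both of the _x_at kind, with opposite calls. By the brighter one it was at 7.04, 7.17 and 7.36 in EVI1 TPA cells, against 7.58, 7.89 and 7.60 in EVI1 EtOH cells. In vec cells this probe set gave 6.85, 6.91 and 6.98 with TPA, against 7.21, 7.36 and 7.41 with EtOH. The arrays did not overlap, and the differences were -0.50 ± 0.11 and -0.41 ± 0.11 (adjusted p = 0.00144 and 0.0054). The other probe set gave 7.01, 7.36 and 7.81 in EVI1 TPA cells, against 6.66, 6.39 and 6.48 in EVI1 EtOH cells, and 6.99, 6.94 and 7.26 in vec TPA cells, against 6.39, 6.27 and 6.20 in vec EtOH cells. Its differences were 0.88 ± 0.16 and 0.78 ± 0.16 (adjusted p = 0.000586 and 0.00151 over all 54675 probe sets), so H2BC5 has no settled direction. In 4 more of the 7 members with several probe sets, H1-7, H2AC15, H2AC25 and H4C8, a probe set made a TPA call that another probe set of the gene did not. Both H4C8 probe sets had all 4 group means below 5.07. The dimmer H4C8 probe set was higher with TPA, by 1.09 ± 0.14 in EVI1 cells and 0.76 ± 0.14 in vec cells (adjusted p = 1.92e-05 and 0.000446), while the one used for the gene differed by -0.10 ± 0.14 and 0.06 ± 0.14.

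H2BC6 was at 7.43, 8.10 and 7.79 in EVI1 TPA cells, against 7.58, 7.72 and 7.38 in EVI1 EtOH cells. It was at 7.18, 7.42 and 7.51 in vec TPA cells, against 7.36, 7.26 and 7.35 in vec EtOH cells. The groups overlapped in both populations. Its differences were 0.21 ± 0.15 (95% interval -0.10 to 0.53) and 0.05 ± 0.15 (-0.27 to 0.36), with adjusted p of 0.309 and 0.846. Without EVI1 TPA replicate 1 the difference in EVI1 cells was 0.38 and was called (adjusted p = 0.0325). Over the 14 H2B genes, 3 were higher and 5 lower in EVI1 cells and 4 higher and 4 lower in vec cells. These are 21.4% higher and 35.7% lower in EVI1 cells, against 19.4% and 20.6% of all genes. In vec cells they are 28.6% and 28.6%, against 20.7% and 22.5% of all genes. Of the H2B genes called lower, only H2BC5 and, in vec cells, H2BC9 had a group mean of at least 5.07.

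**Figure D2:**
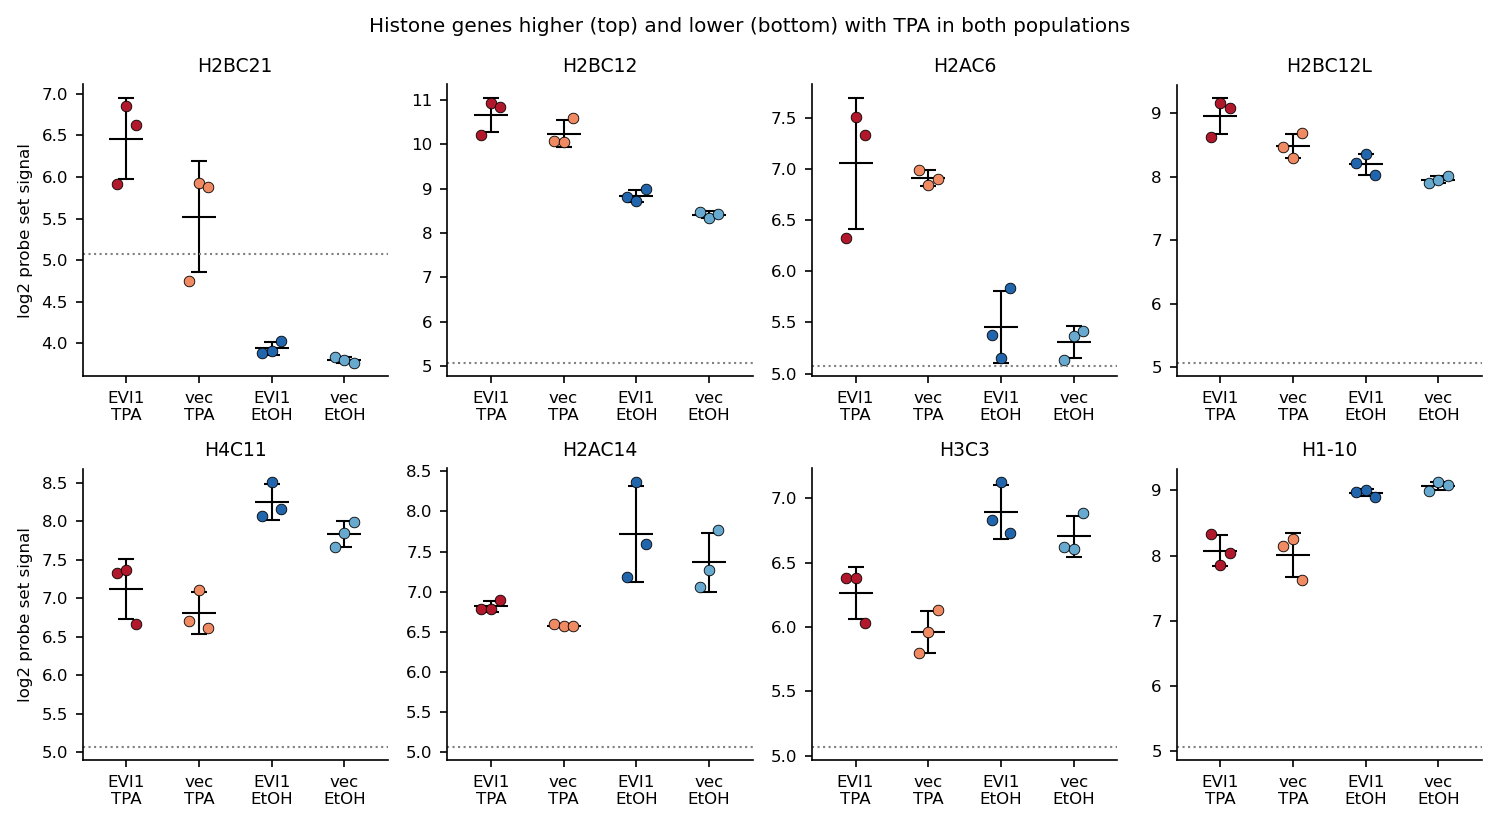
Log2 probe set signal on each array (points) with the group mean and SD (bars) for the 4 histone genes higher with TPA in both populations (top) and 4 of those lower in both (bottom). The dotted line is the lowest array median, 5.07. Only H2BC21 has both EtOH means below the line.

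By the probe sets used for each gene, no H4 gene was called higher with TPA. H4C11 was at 7.33, 7.36 and 6.67 in EVI1 TPA cells, against 8.07, 8.51 and 8.16 in EVI1 EtOH cells. In vec cells its values were 6.70, 7.11 and 6.61 with TPA, against 7.66, 7.84 and 7.99 with EtOH. No TPA array reached the level of any EtOH array of its population. It fell, with a difference of -1.13 ± 0.19 in EVI1 cells and -1.02 ± 0.19 in vec cells (adjusted p = 0.000173 and 0.000371). Its probe set is of the _x_at kind, and the part of other H4 transcripts in its signal was not tested. An _x_at probe set naming 14 H4 genes, H4C11 among them, gave differences of -1.06 ± 0.17 and -1.14 ± 0.17. H4C5 was at 5.33, 5.01 and 5.23 in EVI1 TPA cells, against 5.54, 5.95 and 5.86 in EVI1 EtOH cells. In the vec population it was at 5.29, 5.13 and 5.15 with TPA, against 5.46, 5.82 and 5.84 with EtOH. The arrays stood apart, close to the limit of 5.07 under TPA, and the gene fell, with a difference of -0.59 ± 0.13 in EVI1 cells and -0.52 ± 0.13 in vec cells (adjusted p = 0.0018 and 0.00463). Of the 8 H4 genes, 5 (62.5%) were lower and none higher in EVI1 cells, against 20.6% of all genes lower. In vec cells 3 (37.5%) were lower and none higher, against 22.5% of all genes lower. The median difference was -0.33 and -0.14, and the dimmer H4C8 probe set described above went the other way. Of the H4 genes called lower, only H4C11 and H4C5 had a group mean of at least 5.07.

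The H2A gene H2AC14 was at 6.78, 6.78 and 6.90 in EVI1 TPA cells, against 7.19, 8.37 and 7.60 in EVI1 EtOH cells. In vec cells it was at 6.60, 6.57 and 6.57 with TPA, against 7.06, 7.27 and 7.77 with EtOH. The TPA arrays lay close together and below all EtOH arrays, which were spread widely. The gene fell, with a difference of -0.90 ± 0.23 in EVI1 cells and -0.79 ± 0.23 in vec cells (adjusted p = 0.00597 and 0.0131). Without EVI1 EtOH replicate 2 the difference in EVI1 cells was -0.57, and without vec EtOH replicate 3 the call in vec cells was lost (adjusted p = 0.0725). The H2AC14 probe set is of the _x_at kind, and the part of related H2A transcripts in its signal was not tested. An _x_at probe set naming 6 other H2A genes gave differences of -0.96 ± 0.14 in EVI1 cells and -0.82 ± 0.14 in vec cells. Of the 8 H2A genes, 1 (12.5%) was higher in each population, H2AC6, against 19.4% and 20.7% of all genes. In EVI1 cells 5 (62.5%) were lower and in vec cells 4 (50.0%), against 20.6% and 22.5% of all genes.

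The H3 gene H3C3 was at 6.38, 6.38 and 6.03 in EVI1 TPA cells, against 6.83, 7.13 and 6.73 in EVI1 EtOH cells. The vec cells had 5.80, 5.96 and 6.13 with TPA, against 6.62, 6.61 and 6.89 with EtOH. It fell, with a difference of -0.63 ± 0.13 in EVI1 cells and -0.74 ± 0.13 in vec cells (adjusted p = 0.00136 and 0.000333), with no overlap of arrays. The largest falls among the 46 belonged to the H3 genes H3C7 and H3C2, named here after their values were seen. H3C7 averaged 3.50 ± 0.13 in EVI1 TPA cells and 4.67 ± 0.47 in EVI1 EtOH cells, and 3.18 ± 0.19 in vec TPA cells and 4.68 ± 0.05 in vec EtOH cells (SD, n = 3). H3C2 averaged 3.77 ± 0.12 in EVI1 TPA cells and 5.0 ± 0.37 in EVI1 EtOH cells, and 3.62 ± 0.07 in vec TPA cells and 5.07 ± 0.34 in vec EtOH cells. Neither gene had a group mean above the limit of 5.07, so these falls lie within a range not shown to be above background. Of the 7 H3 genes, 3 (42.9%) were lower and none higher in each population, against 20.6% and 22.5% of all genes lower.

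Of the 9 H1 genes, the linker histone gene H1-10 stood apart from the rest. It was at 8.33, 7.85 and 8.04 in EVI1 TPA cells, against 8.97, 9.01 and 8.90 in EVI1 EtOH cells. On the vec arrays it was at 8.14, 8.25 and 7.63 with TPA, against 8.99, 9.12 and 9.08 with EtOH. The EtOH arrays were tightly grouped and above all TPA arrays. The gene fell, with a difference of -0.89 ± 0.15 in EVI1 cells and -1.06 ± 0.15 in vec cells (adjusted p = 0.000183 and 3.23e-05). H1-7, a linker histone gene of spermatids, was at 5.23, 5.38 and 5.77 in EVI1 TPA cells, against 5.28, 5.31 and 5.40 in EVI1 EtOH cells. For vec cells the values were 5.52, 5.63 and 5.82 with TPA, against 5.18, 5.43 and 5.30 with EtOH. These levels sit just over the limit, and only the vec arrays were separate, with a difference of 0.35 ± 0.13 (adjusted p = 0.0379) and of 0.13 ± 0.13 in EVI1 cells (adjusted p = 0.498). The vec call was lost in each of the 4 fits that left out vec TPA replicate 2 or 3 or vec EtOH replicate 1 or 3 (adjusted p up to 0.151). Besides H1-10 and H1-7, the calls among H1 genes were H1-5, lower in EVI1 cells, and H1-2, lower in vec cells.

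**Figure D3:**
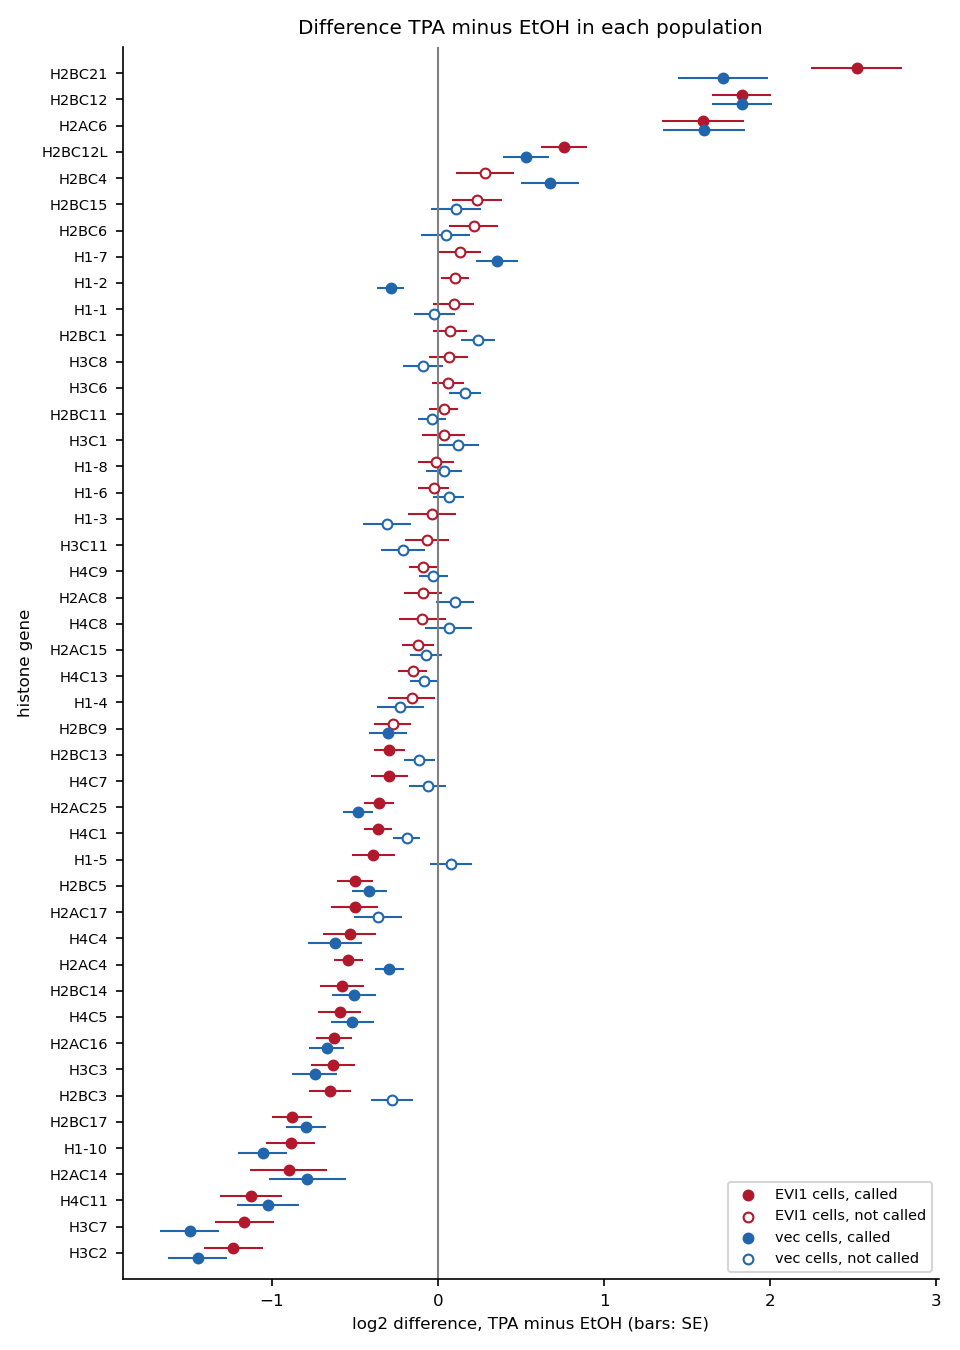
TPA minus EtOH difference (log2, points, with SE as bars) for each of the 46 histone genes in EVI1 cells (red) and vec cells (blue), ordered by the difference in EVI1 cells; filled points passed the adjusted p threshold of 0.05. H2BC21, H2BC12, H2AC6 and H2BC12L are filled on the right in both populations, and no gene is filled on opposite sides.

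Some neighbouring members read away from each other, and no such pair had calls of opposite direction. Differences between the members of a pair were not tested. H2AC14 and H2BC14, with starts 245 bases apart, were lower in both populations. H2AC6 and H2BC4, with starts 246 bases apart, were called higher together in vec cells, whereas H2BC4 was not called in EVI1 cells, with a difference of 0.28 ± 0.17 there and 0.67 ± 0.17 in vec cells. H2BC4 averaged 4.01 ± 0.32 in EVI1 TPA cells and 3.72 ± 0.16 in EVI1 EtOH cells, and 4.18 ± 0.16 in vec TPA cells and 3.51 ± 0.32 in vec EtOH cells, all below 5.07. H2BC17 was lower in both populations, and H2AC17, 240 bases away, was lower in EVI1 cells (-0.50 ± 0.14), with a difference of -0.36 ± 0.14 in vec cells (adjusted p = 0.0562). H2AC15 and H2BC15, 194 bases apart, were called in neither. The starts of H2BC9 and H3C7 lie 979 bases apart, so their 200-base stretches do not overlap. H2BC9 was at 6.65, 6.65 and 6.61 in EVI1 TPA cells, against 6.75, 7.24 and 6.74 in EVI1 EtOH cells. In vec cells its values were 6.19, 6.22 and 6.28 with TPA, against 6.50, 6.56 and 6.54 with EtOH. The vec arrays gave a difference of -0.30 ± 0.11 (adjusted p = 0.0437) and the EVI1 arrays one of -0.27 ± 0.11 (adjusted p = 0.0733), both with no overlap. The vec call was lost in 8 of 12 fits that left out 1 array (adjusted p up to 0.109), and a call in EVI1 cells was gained without EVI1 EtOH replicate 1 or 3 (adjusted p = 0.0381 and 0.0321).

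Genes that serve histone production were also measured. Of 26 genes for histone gene transcription and mRNA 3′ processing, 3 (11.5%) were higher and 16 (61.5%) lower with TPA in EVI1 cells. In vec cells 3 (11.5%) were higher and 17 (65.4%) lower. The shares of all genes were 19.4% higher and 20.6% lower in EVI1 cells, and 20.7% and 22.5% in vec cells. The median differences of the 26 genes were -0.49 and -0.68. CCNE2, CDK2 and CCNE1, the cyclin E and kinase genes that switch on histone transcription through NPAT, fell, with differences of -4.56 ± 0.19, -2.40 ± 0.15 and -2.04 ± 0.12 in EVI1 cells and -4.46 ± 0.19, -2.33 ± 0.15 and -1.98 ± 0.12 in vec cells. TUT7, whose enzyme adds uridines to histone mRNA ends, rose by 1.70 ± 0.10 in EVI1 cells and 2.03 ± 0.10 in vec cells, CDC73 by 0.53 ± 0.11 and 0.37 ± 0.11, and LSM10 by 0.29 ± 0.11 and 0.34 ± 0.11. SLBP and NPAT, named for their direct role after their values were seen, fell, with differences of -1.37 ± 0.09 and -0.49 ± 0.09 in EVI1 cells and -1.28 ± 0.09 and -0.63 ± 0.09 in vec cells. SLBP binds the stem-loop and NPAT is the coactivator of histone genes. All these calls had an adjusted p below 0.05 in the same limma fit.

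Of 8 measured replication-independent variants, 1 (12.5%) was higher and 4 (50.0%) lower in each population. Of all genes, 19.4% were higher and 20.6% lower in EVI1 cells, and 20.7% and 22.5% in vec cells. H2AX, the variant phosphorylated at DNA breaks, fell, with differences of -2.69 ± 0.09 in EVI1 cells and -2.68 ± 0.09 in vec cells. CENPA, the H3 variant of centromeres, fell as well (-2.30 ± 0.20 and -2.31 ± 0.20), as did H2AZ2 (-0.81 ± 0.09 and -0.82 ± 0.09). MACROH2A1, a large H2A variant found on silent chromatin, rose by 0.47 ± 0.08 and 0.56 ± 0.08. Of 21 histone chaperone and supply genes, 3 (14.3%) were higher and 18 (85.7%) lower in EVI1 cells. In vec cells 1 (4.76%) was higher and 18 (85.7%) were lower. HJURP, the loader of CENPA, differed by -4.05 ± 0.28 and -4.27 ± 0.28, ASF1B, which hands H3 and H4 to the assembly factors, by -2.82 ± 0.21 and -3.46 ± 0.21, and NASP, a carrier of H3 and H4, by -2.28 ± 0.15 and -2.97 ± 0.15. ATRX rose by 0.80 ± 0.08 and 0.59 ± 0.08. All 20 S phase genes were lower in each population, with medians of -3.78 and -4.16, and with GINS2, CDT1 and CDC6 differing by -5.04 ± 0.19, -4.81 ± 0.16 and -4.62 ± 0.16 in EVI1 cells. In the same samples, the lowest TPA difference of any histone member was -1.23 in EVI1 cells (H3C2) and -1.50 in vec cells (H3C7). Neither of these genes had a group mean above 5.07, whereas the S phase genes averaged 10.8 to 10.9 on the EtOH arrays. Labelling from poly(A) tails also does not read the whole output of a histone gene. The sizes of these falls therefore cannot be compared directly with those of the S phase genes.

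The comparison of EVI1 with vec cells asks whether these genes differed between the populations. Whether EVI1 itself made any such difference was not tested. Under TPA, 4 members were higher and 1 lower in EVI1 cells, or 10.9% of the 46, against 11.2% of all genes (5.90% higher and 5.30% lower), a share near that of all genes. With EtOH, none was higher and 1 was lower, or 2.17%, against 3.27% of all genes (1.32% higher and 1.95% lower). In limma at an unadjusted p below 0.05, 8 members were higher and 1 lower in each of these comparisons, or 19.6%, against 22.4% of all genes under TPA and 12.7% with EtOH. The median EVI1 minus vec difference was 0.05 under TPA and 0.08 with EtOH, against 0.01 for all genes in each, and 27 (58.7%) and 36 (78.3%) of 46 differences were above 0, against 51.7% and 52.4% of all genes. All 7 members read by _x_at probe sets (H2BC12L, H2BC6, H4C11, H2BC5, H2AC14, H2BC9 and H3C8) had a difference above 0 in both treatments. Their medians were 0.31 under TPA and 0.35 with EtOH. The part of cross-binding of related transcripts in this was not tested.

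H2AC25, an H2A gene on chromosome 1 away from the main cluster, was the member called lower in EVI1 cells in both treatments. It was at 6.32, 6.19 and 6.21 in EVI1 TPA cells, against 6.57, 6.74 and 6.64 in vec TPA cells. With EtOH it was at 6.55, 6.50 and 6.74 in EVI1 cells, against 7.20, 7.17 and 7.03 in vec cells. EVI1 and vec arrays did not overlap in either treatment. The difference was -0.41 ± 0.09 under TPA and -0.54 ± 0.09 with EtOH (adjusted p = 0.00803 and 0.00354). It also fell with TPA, with differences of -0.36 ± 0.09 in EVI1 cells and -0.48 ± 0.09 in vec cells (adjusted p = 0.00451 and 0.000387). Its second probe set, with no group mean above 4.16, gave EVI1 minus vec differences of 0.15 ± 0.10 and -0.03 ± 0.10, neither of them called.

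The 4 members higher in EVI1 cells under TPA were H2BC21, H2BC12L, H2BC9 and, named outside the rule for described genes, H1-2. H2BC21 averaged 6.46 ± 0.49 in EVI1 TPA cells and 5.52 ± 0.67 in vec TPA cells, and the arrays listed above overlapped. Within replicate numbers, which were taken to pair these samples, EVI1 exceeded vec by 1.16, 0.92 and 0.74. Its difference was 0.94 ± 0.27 (adjusted p = 0.0405, and 0.0148 with the replicate number as a block), and it was 0.56 without vec TPA replicate 1. Without the block, the call was lost in 9 of 12 fits that left out 1 array (adjusted p up to 0.168). H2BC12L averaged 8.96 ± 0.29 in EVI1 TPA cells and 8.48 ± 0.19 in vec TPA cells, also with overlap, with a difference of 0.47 ± 0.14 (adjusted p = 0.0425), lost in 8 of 12 such fits. H2BC9 averaged 6.64 ± 0.02 and 6.23 ± 0.05, without overlap, with a difference of 0.41 ± 0.11 (adjusted p = 0.0331), lost in 5 of 12. With EtOH the differences were 0.14 for H2BC21, 0.24 for H2BC12L and 0.38 for H2BC9. None of these was called (limma adjusted p = 0.924, 0.531 and 0.11), though the H2BC9 arrays did not overlap there either. The calls of these genes are therefore not shown to be particular to TPA.

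H1-2, a linker histone gene of the chromosome 6 cluster, was at 7.0, 7.16 and 7.15 in EVI1 TPA cells, against 6.76, 6.74 and 6.63 in vec TPA cells. With EtOH it was at 6.88, 7.09 and 7.03 in EVI1 cells, against 7.03, 6.93 and 7.03 in vec cells. The populations were separate under TPA and overlapped with EtOH. The difference was 0.39 ± 0.08 under TPA (adjusted p = 0.00726) and 0.00 ± 0.08 with EtOH (adjusted p = 0.995). H2BC12, the brightest member, was 0.42 ± 0.18 higher in EVI1 cells in both treatments, which did not pass the test (adjusted p = 0.18 and 0.325; 95% intervals 0.03 to 0.80 and 0.04 to 0.80). Without EVI1 TPA replicate 1 the difference under TPA was 0.64 and was called (adjusted p = 0.0159).

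**Figure D4:**
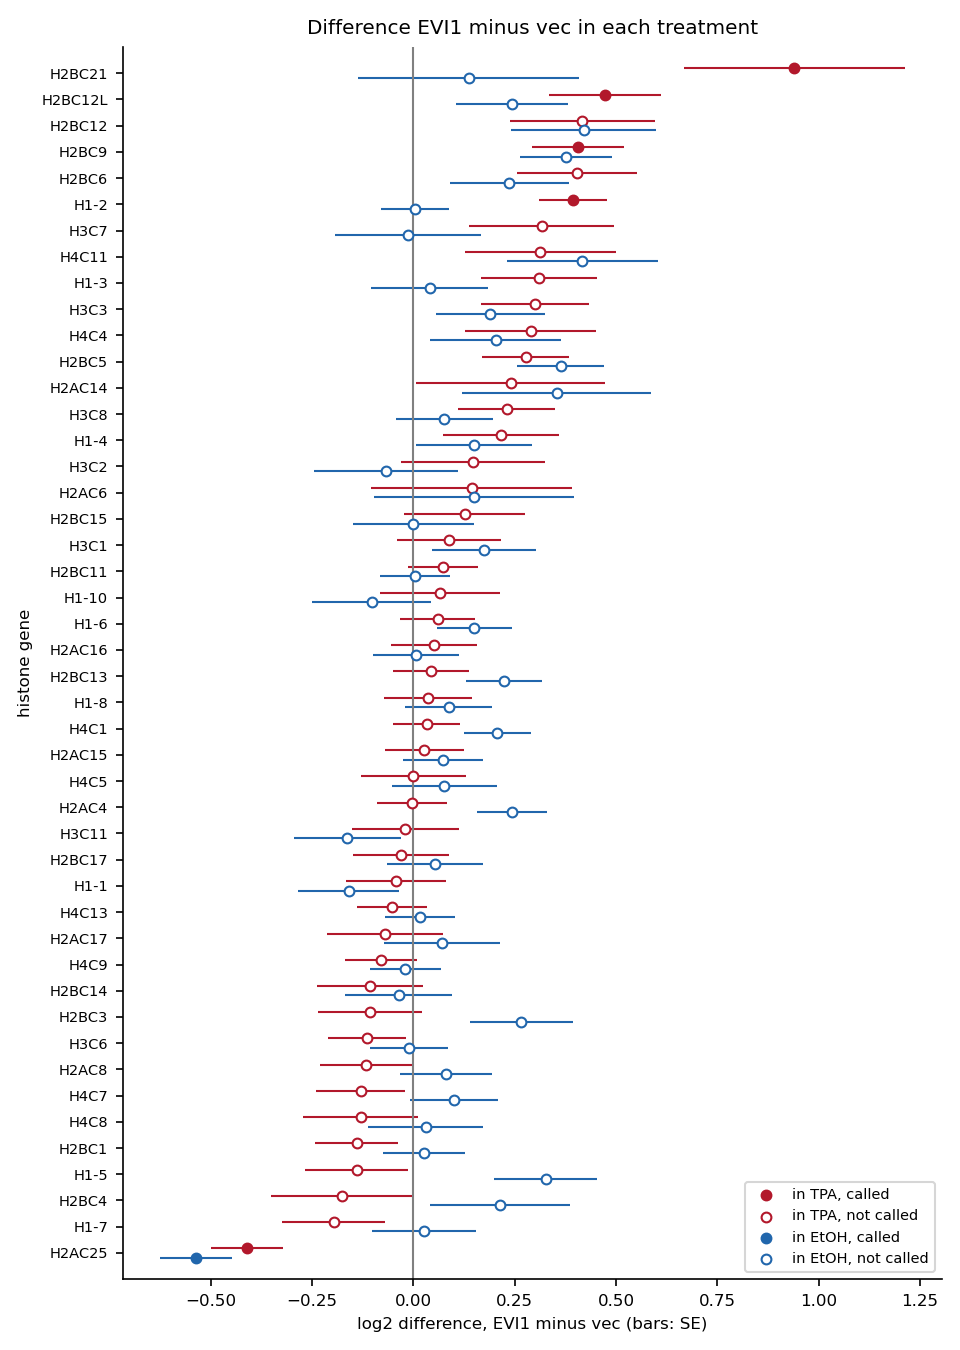
EVI1 minus vec difference (log2, points, with SE as bars) for each of the 46 histone genes under TPA (red) and with EtOH (blue), ordered by the difference under TPA; filled points passed the adjusted p threshold of 0.05. H2AC25 is filled on the left in both treatments, and the 4 filled points on the right, H2BC21, H2BC12L, H2BC9 and H1-2, are all under TPA.

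Whether the TPA response itself differed between EVI1 and vec cells was tested by the interaction term. No member passed it in limma, against 1.98% of all genes (0.936% higher and 1.05% lower), and the smallest adjusted p among the 46 was 0.137. At an unadjusted p below 0.05, 1 member was higher and 1 lower, or 4.35%, against 12.5% of all genes. The difference in response was 0.39 ± 0.12 for H1-2 (95% interval 0.13 to 0.65), -0.47 ± 0.18 for H1-5 (-0.86 to -0.08; adjusted p = 0.274) and 0.80 ± 0.38 for H2BC21 (-0.03 to 1.63; adjusted p = 0.417). For H2BC12 and H2AC6 it was -0.00 ± 0.25 (-0.55 to 0.54) and -0.01 ± 0.35 (-0.76 to 0.75). With 3 arrays a group, differences in response within these intervals were not excluded. The calls made in only 1 population are therefore not shown to differ between populations.

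Some other genes of histone production were also called between EVI1 and vec cells. Of the 26 genes for transcription and 3′ processing, 2 were higher and 1 lower under TPA, or 11.5%, against 11.2% of all genes. With EtOH 1 was lower, or 3.85%, against 3.27% of all genes, and both shares are near those of all genes. LSM1, which takes part in histone mRNA decay, was lower in EVI1 cells, with a difference of -1.11 ± 0.09 under TPA and -0.99 ± 0.09 with EtOH (adjusted p = 6.32e-06 and 4.97e-05). Under TPA, 5 of 21 chaperone and supply genes (23.8%, against 5.90% of all genes called higher) were higher in EVI1 cells, NASP, RBBP4, HAT1, ANP32E and HIRA, by 0.33 to 0.61. SRRT and CPSF3, of the 3′ processing list, were higher by 0.32 ± 0.07 and 0.26 ± 0.08. None of the 8 variants was called between populations. Under TPA, 3 of the 20 S phase genes (15.0%) were higher in EVI1 cells, against 5.90% of all genes.

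**Figure D5:**
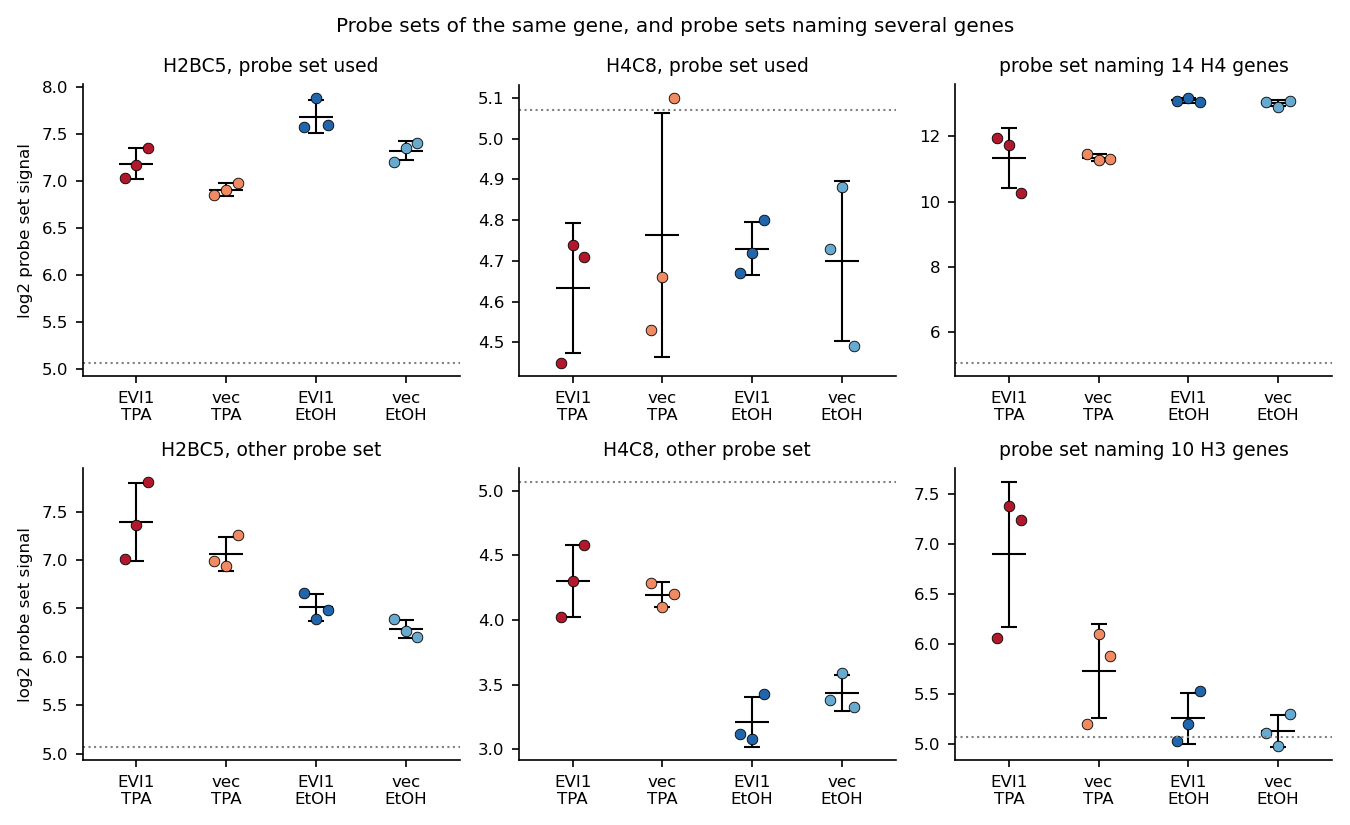
Log2 signal on each array (points) with group mean and SD (bars) for both probe sets of H2BC5 and of H4C8 and for 2 probe sets that name several histone genes; the dotted line is 5.07. The H2BC5 probe sets move in opposite directions between TPA and EtOH, and the probe set naming 14 H4 genes is lower with TPA while the one naming 10 H3 genes is highest in EVI1 TPA cells.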

How the data were processed

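RNA of 12 cultures (250 ng each) was labelled by a 3′ protocol, per the labels' protocols, and read on arrays with 54675 probe sets. The deposited values are log2 signals that the authors made; per the submitters' processing notes, the tools were RMA and Affymetrix Expression Console 1.3. RMA puts all arrays on a common scale, so a change shared by most genes would not show. Array values carry no read depth, and the 3 arrays a group limit the precision. A probe set was used if GEO's platform annotation gives it 1 gene (41097 probe sets), with symbols brought up to date through RefSeq (42 genes had no match). Each gene is its probe set with the highest mean over 12 arrays. One model with a mean per group was fitted to all 19775 genes (limma 3.58.1 in R 4.3.3, lmFit and eBayes, two-sided, Benjamini-Hochberg at 0.05), with 8 residual degrees of freedom and a median SE of 0.11, or 0.15 for a difference in response. The code was tested on simulated data.

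Members given with every array are the 6 brightest, up to 5 called genes each way in each TPA comparison and up to 3 each way in the others, if the higher group mean reached 5.07, and H1-10. Other lists have up to 3 genes named each way. The members and lists were chosen with earlier results of these data known. The replicates are biological per the labels. Same-numbered arrays deviated together in EVI1 TPA and vec TPA cells (r = 0.415, 0.130 and 0.151). All 3 were over a cutoff of 0.1, so the numbers were taken to pair those samples. In the other comparisons r ran between 0.075 and 0.208, and in each of them at least 1 r was below the cutoff. The pairing was thus read from these same arrays, and the main fit had no replicate block. Alternatives were a replicate block, an intensity trend, dim genes left out, the mean of or every probe set of a gene, median scaling, quantile normalization and leaving out each array. Pseudogenes and an antisense RNA (4 symbols) were left out.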

Additional observations from a re-analysis of the deposited data

How the results depend on the processing

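With the replicate number as a block, the counts of members higher and lower were 4 and 20 with TPA in EVI1 cells, 6 and 16 with TPA in vec cells, 4 and 1 for EVI1 against vec under TPA, 0 and 1 with EtOH, and 0 and 0 for the difference in response; the block changed no call of a described member. With dim genes left out, 9 of the 20 members still tested were lower with TPA in EVI1 cells, because fewer genes were tested. With the mean of all probe sets of a gene, no member was lower in EVI1 than in vec cells under TPA (H2AC25, -0.13, adjusted p = 0.32), and H2BC5 turned to 0.19 in EVI1 cells and 0.18 in vec cells for TPA minus EtOH (adjusted p = 0.226 and 0.236). Leaving out 1 array at a time gave 4 to 5 members higher and 16 to 20 lower with TPA in EVI1 cells, and 5 to 7 higher and 14 to 17 lower in vec cells. For EVI1 against vec under TPA it gave 1 to 5 higher and 1 to 2 lower, with 1 higher without EVI1 TPA replicate 2 or vec TPA replicate 1, and 2 higher without vec TPA replicate 2, EVI1 EtOH replicate 1 or any 1 of the 3 vec EtOH replicates. Counts with EtOH stayed at 0 and 1, and those for the difference in response at 0 and 0. Of 29 calls of described members, 28 were kept with an intensity trend and 24 with the mean of probe sets (3 lost and 2 turned). With every probe set tested 27 were kept, with median scaling 29 and after quantile normalization 27. With dim genes left out, the 26 calls still tested were all kept. The other 3 calls were those of H2BC21, which had the largest rise with TPA in EVI1 cells. Its mean over 12 arrays was 4.93, so it was left out as dim and its calls were not tested there. Of 348 calls over the 12 fits without 1 array, 313 were kept and 35 lost. The same fits gained 7 calls among 41 differences of described members that had not been called, for H2BC9 (2 fits) and H2BC6 with TPA in EVI1 cells and for H2BC12, H2BC6, H4C11 and H1-7 between EVI1 and vec cells under TPA. The cause of the lost calls was not tested. Dim probe sets limit 25 of the 46 genes, and 28 genes with these names had no probe set of their own here.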

Other observations

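The 20 probe sets that name several histone genes were tested among all 54675 probe sets. With TPA, 2 were higher and 5 lower in EVI1 cells (35.0%, against 31.0% of all probe sets), and 2 higher and 6 lower in vec cells (40.0%, against 34.0%). Most of the lower ones in each population named the same 14 H4 genes, so the 20 probe sets are not 20 separate measurements. A probe set naming 14 H4 genes was at 11.96, 11.74 and 10.27 in EVI1 TPA cells, against 13.08, 13.18 and 13.04 in EVI1 EtOH cells, and at 11.47, 11.26 and 11.30 in vec TPA cells, against 13.04, 12.91 and 13.08 in vec EtOH cells. It was among the brightest of these probe sets, its TPA arrays all lay below its EtOH arrays, and EVI1 TPA replicate 3 was the lowest of all. The TPA minus EtOH difference was -1.78 ± 0.30 in EVI1 cells and -1.67 ± 0.30 in vec cells (limma adjusted p = 0.000287 and 0.000445). A probe set naming 6 H2A genes, H2AC11 to H2AC13 and H2AC15 to H2AC17, was also lower, with differences of -0.96 ± 0.14 in EVI1 cells and -0.82 ± 0.14 in vec cells.

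A probe set naming 10 H3 genes went the other way. It was at 6.06, 7.38 and 7.24 in EVI1 TPA cells, against 5.03, 5.20 and 5.53 in EVI1 EtOH cells, and at 5.20, 6.10 and 5.88 in vec TPA cells, against 5.11, 4.98 and 5.30 in vec EtOH cells. Replicate 1 was the lowest TPA array in both populations, as for H2BC21, and only the EVI1 arrays were separate. The rise with TPA was 1.64 ± 0.30 in EVI1 cells (adjusted p = 0.000487), and in vec cells the difference was 0.60 ± 0.30 (adjusted p = 0.152). EVI1 minus vec under TPA was 1.17 ± 0.30 (adjusted p = 0.0287), and the difference in response was 1.04 ± 0.42 (adjusted p = 0.389). Which of the 10 genes gave this signal cannot be told apart by this probe set.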
